A study of Mus musculus with 16 samples.

Results

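This account covers 8 genes that encode molecules used by, or characteristic of, FOXP3+ regulatory T cells (Treg): the nucleotide-degrading surface enzymes Nt5e and Entpd1, the cytokine genes Ebi3 and Il10, the TGF-β docking protein Lrrc32, the co-receptor Nrp1, the folate receptor family protein Izumo1r and the actin-capping protein Capg. They were chosen by symbol, with earlier results of these data known, out of 11464 genes with a row in either of 2 deposited tables. All 8 had a row in the Treg table, and 7 had one in the table of conventional CD4+ T cells (Tcon, FOXP3-), where Lrrc32 was not analysed here. The mice carried a GFP reporter of Foxp3 (FOXP3-IRES-GFP, strain B6.Cg-Foxp3tm2Tch/J, genotype WT in every group), and RNA of CD4+ cells from spleen and lymph node was sequenced. The groups were Treg from venetoclax-treated mice, Treg from vehicle-treated mice, Tcon from venetoclax-treated mice and Tcon from vehicle-treated mice, with 4 biological replicates each. Venetoclax, a BCL-2 inhibitor that removes a brake on apoptosis, was given at 50 mg/kg for 14 days. No source used here gives the age or sex of the mice, or says whether a replicate was 1 animal or a pool.

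Tregs restrain other immune cells by several routes. On the cell surface, ENTPD1 (CD39) removes phosphates from extracellular ATP and ADP, NT5E (CD73) turns the resulting AMP into adenosine, and adenosine acts on T cells largely through the receptor encoded by Adora2a. EBI3 is a subunit of the cytokines IL-27 and IL-35, IL-10 dampens antigen-presenting cells, and LRRC32 (GARP) holds latent TGF-β on the Treg surface, where integrins can release it. NRP1 binds semaphorins and marks many thymus-derived Tregs in mice, IZUMO1R is abundant on mouse Tregs, and CAPG caps actin filaments.

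The sequences upstream of Nt5e, Entpd1 and Ebi3 are shown because these genes, the paired adenosine-forming enzymes and the cytokine subunit, had the largest log2 changes in Tregs below. Each run holds the 250 bases before an annotated start, from RefSeq's annotation of GRCm38.p6, at chr9:88327359-88327608 (Nt5e, + strand), chr19:40612116-40612365 (Entpd1, the upstream of 2 annotated starts, + strand) and chr17:55952373-55952622 (Ebi3, + strand). Capitals mark GC boxes (GGGCGG on either strand).
Nt5e: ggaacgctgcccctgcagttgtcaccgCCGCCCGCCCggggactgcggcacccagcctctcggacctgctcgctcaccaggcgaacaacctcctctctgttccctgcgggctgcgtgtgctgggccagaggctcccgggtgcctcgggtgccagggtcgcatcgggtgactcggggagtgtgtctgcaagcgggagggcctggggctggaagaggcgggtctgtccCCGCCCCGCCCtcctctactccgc
Entpd1: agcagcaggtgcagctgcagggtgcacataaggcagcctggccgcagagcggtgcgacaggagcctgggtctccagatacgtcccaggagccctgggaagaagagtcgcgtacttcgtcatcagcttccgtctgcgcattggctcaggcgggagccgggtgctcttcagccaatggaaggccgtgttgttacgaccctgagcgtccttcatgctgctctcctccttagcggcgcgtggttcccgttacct
Ebi3: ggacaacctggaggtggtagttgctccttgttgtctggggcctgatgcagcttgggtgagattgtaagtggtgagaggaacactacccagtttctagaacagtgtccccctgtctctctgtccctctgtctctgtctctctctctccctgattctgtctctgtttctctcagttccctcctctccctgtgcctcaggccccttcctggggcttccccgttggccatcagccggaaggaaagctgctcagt
Motifs of 6 kinds were looked for on both strands of windows of 300 bases, from 250 before to 50 after the start. Windows existed for Nt5e, Entpd1 (2 windows), Ebi3, Nrp1, Izumo1r and Capg. The GC box occurred in 35.7% of all 32851 such windows. Nt5e held 4 GC boxes, in overlapping pairs that begin 223 and 219 and again 24 and 19 bases before its start, and Nrp1 held 1 that begins 98 bases before its start. TGTTTAC (forkhead, 3.65% of all windows), TGACTCA (AP-1, 5.2%), TTCNNNGAA (STAT, 8.3%), TGACGTCA (CRE, 1.79%) and CAGATG (E-box, 17.2%) had no match in the windows of these genes. The GC content of the printed runs was 72% for Nt5e, 62.4% for Entpd1 and 56% for Ebi3.

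Treg libraries held 21335006 to 25027038 reads over 11067 genes, and Tcon libraries 22982210 to 24960570 reads over 11171 genes. The Treg identity markers (Foxp3, Il2ra, Ikzf2, Ikzf4, Ctla4, Tnfrsf18 and Gpr83) summed to 3697 to 4550 CPM (reads scaled by library total) across Treg libraries and to 138 to 212 CPM across Tcon libraries, and 6 of 7 CD4 T cell markers were measured at like sums in both. Of 46 markers of other cells, 22 had a row in the Treg table and 25 in the Tcon table. Y-linked reads (2 genes summed) differed between replicate numbers and the labels give no sex. They stood at 103, 325, 168 and 0.041 CPM in venetoclax Treg replicates 1 to 4 and at 0, 323, 0.040 and 0 CPM in vehicle Treg replicates 1 to 4, with the same pattern in Tcon.

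The first comparison asked whether these genes differed in Tregs after venetoclax. Of the 8 genes 6 rose: Nt5e, Ebi3, Entpd1, Nrp1, Capg and Izumo1r, by 1.14-fold to 1.54-fold, and in each of the 6 every venetoclax library exceeded every vehicle library. Il10 and Lrrc32 did not pass the test. In the same fit 19.6% of the 11067 genes were called, 10.7% higher and 8.81% lower, and 12% had groups that did not overlap with venetoclax higher (10.7% with venetoclax lower). The median log2 change was 0.31 over the 8 genes and 0.00 over all genes. The test was limma on log2 of the normalized read count (reads scaled by a size factor for each library) plus 1, with Benjamini-Hochberg adjustment over the 11067 genes and a threshold of 0.05. Its p-values set the difference between the groups against the spread between libraries within groups.

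**Figure D1:**
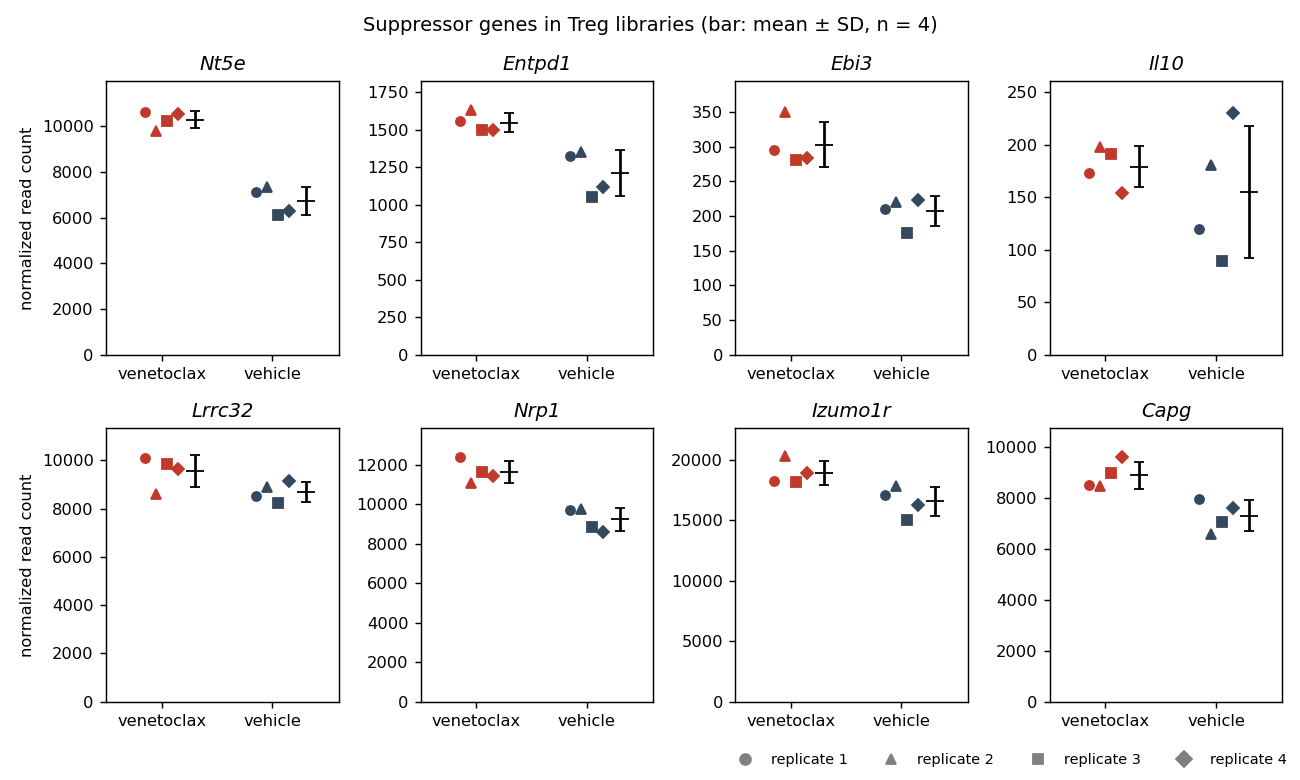
Normalized read counts of the 8 genes in Treg libraries, venetoclax (red) left of vehicle (blue). Each marker is 1 library, its shape gives the replicate number, and the cross with bars is the mean ± SD of 4 libraries; the groups do not overlap for Nt5e, Entpd1, Ebi3, Nrp1, Izumo1r and Capg, and overlap for Il10 and Lrrc32.

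Both adenosine-forming enzymes rose in Tregs. Nt5e (Entrez 23959; chromosome 9, 88327609 to 88372089, GRCm38.p6) had normalized counts of 10601, 9776, 10208 and 10539.7 in venetoclax Tregs, against 7122, 7337, 6101 and 6282 in vehicle Tregs. The lowest venetoclax library lay well above the highest vehicle library, and the venetoclax libraries were the tighter group (coefficient of variation 3.68% in venetoclax and 9.10% in vehicle). The log2 change was 0.62 (SE 0.06, 95% interval 0.49 to 0.75, limma adjusted p = 0.000102), which is 1.54-fold. Entpd1 (Entrez 12495; chromosome 19, 40612366 to 40741602) had 1560.3, 1629, 1497 and 1496 in venetoclax Tregs, against 1324, 1353, 1048 and 1116 in vehicle Tregs. The groups did not overlap, and vehicle replicates 3 and 4 were the low ones (log2 0.36, SE 0.08, limma adjusted p = 0.00674). The call of Entpd1 was lost without venetoclax replicates 1 and 3, whose Y-linked reads were partial (adjusted p = 0.0621).

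The cytokine genes were the lowest of the 8 and differed from each other. Ebi3 (Entrez 50498; chromosome 17, 55952623 to 55957022) had 296, 350.04, 281 and 283 normalized counts in venetoclax Tregs, against 210.2, 220.5, 175 and 222 in vehicle Tregs. Every venetoclax library lay above every vehicle library (log2 0.55, SE 0.11, limma adjusted p = 0.00404). Il10 (Entrez 16153; chromosome 1, 131019845 to 131024970) had 173, 197, 191 and 154 in venetoclax Tregs, against 119.7, 181, 89.6 and 229.9 in vehicle Tregs. The vehicle libraries held both the highest and the lowest Il10 value and spanned the venetoclax libraries, with a coefficient of variation of 40.5% against 11.0% in venetoclax, so a change was not detectable (log2 0.29, 95% interval -0.20 to 0.78, limma adjusted p = 0.396).

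Among the surface receptors, Nrp1 changed and Lrrc32 did not pass. Nrp1 (Entrez 18186; chromosome 8, 128358591 to 128505476) had 12409, 11101, 11656 and 11412 normalized counts in venetoclax Tregs, against 9705, 9748, 8861 and 8612 in vehicle Tregs. The groups were separated, with vehicle replicates 3 and 4 again the lower pair of vehicle libraries (log2 0.34, SE 0.06, limma adjusted p = 0.00156). Lrrc32 (Entrez 434215; chromosome 7, 98489305 to 98501831) had 10101, 8595, 9835 and 9656 in venetoclax Tregs, against 8531, 8882, 8227 and 9155 in vehicle Tregs. In 3 of 4 cases the venetoclax library lay above all vehicle libraries, and venetoclax replicate 2 lay among the vehicle libraries (log2 0.13, SE 0.06, limma adjusted p = 0.124). Without venetoclax replicate 2 the adjusted p of Lrrc32 was 0.0387.

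Izumo1r was the most abundant of the 8 and had the smallest change that passed. Izumo1r (Entrez 64931; chromosome 9, 14885814 to 14903951) had 18290.4, 20305, 18149 and 18941 normalized counts in venetoclax Tregs, against 17118, 17857, 15059 and 16265 in vehicle Tregs. The groups were separated by a narrow gap between venetoclax replicate 3 and vehicle replicate 2 (log2 0.19, SE 0.06, limma adjusted p = 0.0428). This call depended on single libraries. With a venetoclax library left out, the adjusted p was 0.0657 (replicate 1), 0.117 (replicate 2), 0.0552 (replicate 3) or 0.0875 (replicate 4). With a vehicle library left out it was 0.0643 (replicate 1), 0.0207 (replicate 2), 0.12 (replicate 3) or 0.0796 (replicate 4). It was 0.0517 with TMM scaling, 0.0858 with upper quartile scaling, 0.153 with Y-linked reads as a covariate and 0.0558 with edgeR. Without venetoclax replicates 1 and 3 it was 0.0972, and without replicate 3 of both groups 0.129.

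Capg rose by 1.22-fold in Tregs. Capg (Entrez 12332; chromosome 6, 72538282 to 72562983) had 8476, 8458, 8976 and 9597 normalized counts in venetoclax Tregs, against 7945, 6587, 7052 and 7601 in vehicle Tregs. The groups did not overlap, and venetoclax replicate 4 and vehicle replicate 1 were the high libraries of their groups (log2 0.28, SE 0.06, limma adjusted p = 0.0078). The call was lost without venetoclax replicates 1 and 3 (adjusted p = 0.0563) and without replicate 3 of both groups (adjusted p = 0.0529).

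Vehicle replicate 3 was the lowest of its group for 6 of the 8 genes in Tregs. The direction in Tregs was also read within libraries alike in Y-linked reads. Between replicate 2 of both groups, the libraries with the most Y-linked reads, venetoclax was higher for each of the 8 genes but Lrrc32. Venetoclax replicate 4, which lacked such reads, lay above all 3 vehicle libraries that lacked them for each gene but Il10. For the 6 genes whose full groups did not overlap, both readings had to give venetoclax higher. Only Il10 and Lrrc32 could have gone either way. Nt5e, for example, was 1.33-fold higher with venetoclax in the first setting and 1.62-fold higher in the second. Single libraries stand on the venetoclax side in both, so these are values with no test.

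Other marker genes moved with the treatment in Tregs. The summed level of the Treg identity list was 4188 to 4550 CPM in venetoclax Tregs and 3697 to 4124 CPM in vehicle Tregs, and 3 of its 7 genes rose (Ikzf2, Ikzf4 and Gpr83). Foxp3 averaged 909 CPM in venetoclax Tregs and 836 CPM in vehicle Tregs (log2 0.11, limma adjusted p = 0.202). Of the 22 measured markers of other cells, the B cell gene Cd22 rose (7.37 CPM in venetoclax, 4.83 CPM in vehicle; log2 0.60, limma adjusted p = 0.0199) and Pecam1, from the endothelial list and also carried by naive T cells, fell (175 CPM in venetoclax, 236 CPM in vehicle; log2 -0.44, limma adjusted p = 0.000717). Of the 22, 8 had an unadjusted limma p under 0.05, edgeR called 2 and DESeq2 called 4. The 4 measured B cell markers summed to 22.6 to 29.4 CPM in venetoclax Tregs and to 21.6 to 24.7 CPM in vehicle Tregs. Among them Cd79a averaged 2.71 CPM in venetoclax and 3.19 CPM in vehicle, and Cd79b 14.1 and 14.4 CPM. Ms4a1 was near the floor, at 0.449 CPM in venetoclax and 0.349 CPM in vehicle. Cd79a, Cd79b and Ms4a1 were not called by limma. In bulk RNA a change in the share of a kind of cell and a change in RNA per cell cannot be told apart, and the part of these markers in the results was not tested.

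The same comparison in Tcon gave 2 of 7 genes called, Capg and Nt5e, both higher after venetoclax. The groups did not overlap for Nt5e, Entpd1, Izumo1r and Capg. Over the 11171 genes measured in Tcon 6.91% were called, 3.92% higher and 2.99% lower, and 8.78% had groups that did not overlap with venetoclax higher (7.47% with venetoclax lower). The median log2 change was 0.51 over the 7 genes and 0.00 over all genes.

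**Figure D2:**
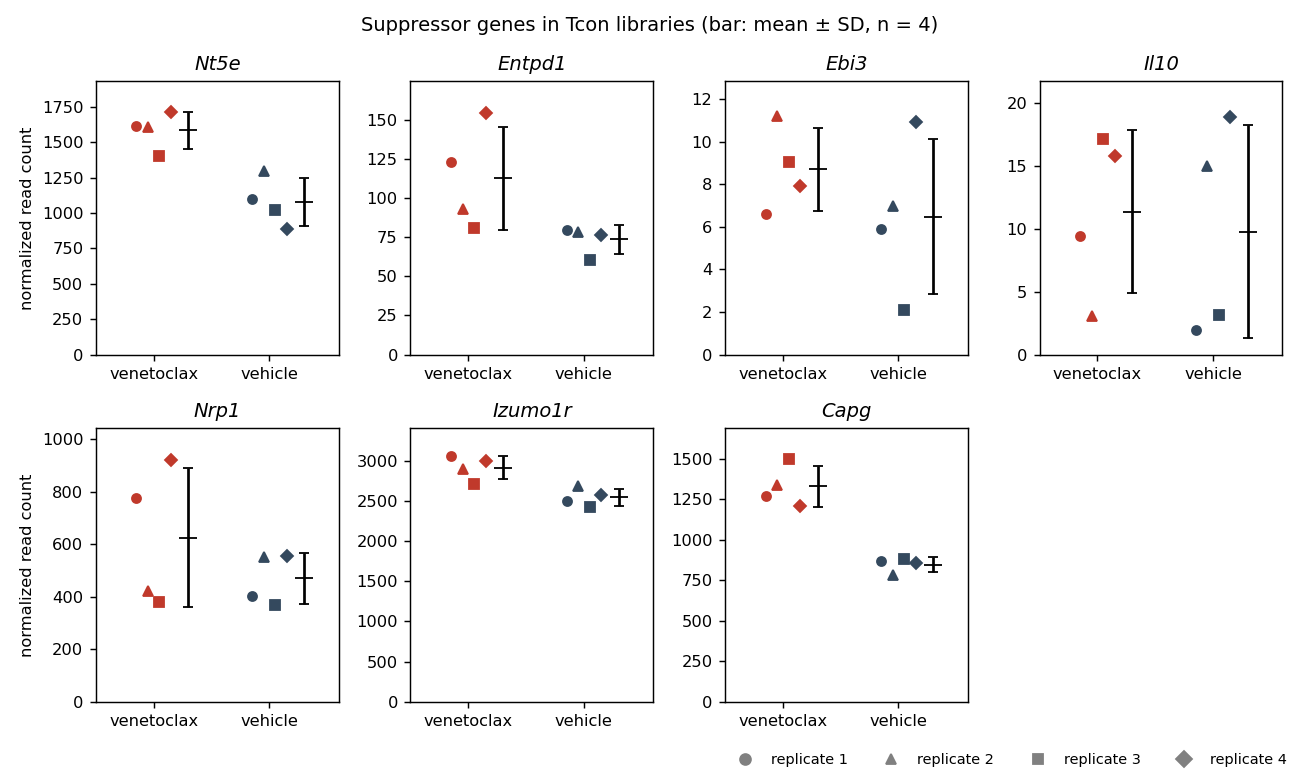
Normalized read counts of the 7 measured genes in Tcon libraries, venetoclax (red) left of vehicle (blue), with markers and bars as in the plot for Tregs. Nt5e, Entpd1, Izumo1r and Capg are separated between groups, Nrp1 splits into high and low libraries within venetoclax, and Ebi3 and Il10 stay below 20 normalized counts. Over all genes in Tcon 8.78% had groups that did not overlap with venetoclax higher.

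Capg had the largest change of the 7 in Tcon. It had normalized counts of 1274, 1339, 1501 and 1209 in venetoclax Tcon, against 867, 785, 883 and 855 in vehicle Tcon. The lowest venetoclax library was far above the highest vehicle library (log2 0.65, SE 0.08, 95% interval 0.47 to 0.83, limma adjusted p = 0.00142). This is 1.57-fold, and the call held without each library in turn (adjusted p 0.000705 to 0.00764).

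Nt5e rose in Tcon too, and Entpd1 did not pass. Nt5e had 1613, 1609.8, 1405 and 1715 normalized counts in venetoclax Tcon, against 1100.4, 1300.4, 1023 and 891 in vehicle Tcon. The groups were separated, with venetoclax replicate 3 and vehicle replicate 2 closest to each other (log2 0.57, SE 0.11, limma adjusted p = 0.014). The call of Nt5e was lost without venetoclax replicate 1 (adjusted p = 0.0563), without venetoclax replicates 1 and 3 (0.0904) and with Y-linked reads as a covariate (0.0816). Entpd1 had 123, 92.9, 80.6 and 154 in venetoclax Tcon, against 79.7, 78.0, 60.2 and 76.5 in vehicle Tcon. Venetoclax replicate 3 lay just above the vehicle libraries while replicates 1 and 4 lay far above them (log2 0.57, SE 0.21, limma adjusted p = 0.127; 0.0318 with the replicate number as a block).

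Izumo1r had 3057, 2904, 2717 and 2997 normalized counts in venetoclax Tcon, against 2504, 2687, 2429.6 and 2571 in vehicle Tcon. The groups did not overlap, but the test over all genes was missed (log2 0.20, SE 0.06, limma adjusted p = 0.0968). It was passed without replicate 3 of both groups (adjusted p = 0.0272), with DESeq2 on the recovered reads (0.0424) and with the replicate number as a block (0.0321). Nrp1 had 778, 422, 382 and 920.4 in venetoclax Tcon, against 404, 553, 368 and 556 in vehicle Tcon. Venetoclax replicates 1 and 4 stood above every vehicle library and replicates 2 and 3 did not (log2 0.33, 95% interval -0.27 to 0.94, limma adjusted p = 0.528).

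The cytokine genes were near the bottom of the Tcon range. Ebi3 had 6.60, 11.2, 9.07 and 7.90 normalized counts in venetoclax Tcon, against 5.90, 6.997, 2.11 and 10.9 in vehicle Tcon. Il10 had 9.43, 3.06, 17.1 and 15.8 in venetoclax Tcon, against 1.97, 15.0, 3.17 and 18.9 in vehicle Tcon. The groups overlapped for both genes, and the intervals were wide (log2 0.51, -0.46 to 1.48 for Ebi3 and 0.43, -1.11 to 1.97 for Il10; limma adjusted p = 0.557 and 0.784). Each value rests on few reads: Ebi3 had 35 reads over the 4 venetoclax libraries and 26 over the 4 vehicle libraries, and Il10 had 46 and 39. The Il10 values varied widely within both groups, and the part of depth in that spread was not tested.

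Beside these values, the Treg identity list summed to 178 to 212 CPM in venetoclax Tcon and to 138 to 168 CPM in vehicle Tcon. Of its 7 genes 3 rose (Il2ra, Tnfrsf18 and Gpr83). The call of Tnfrsf18 held in 2 of 8 fits without a single library, and was lost with Y-linked reads as a covariate (limma adjusted p = 0.149). Ctla4 averaged 17.5 CPM in venetoclax Tcon and 25.1 CPM in vehicle Tcon (log2 -0.45, limma adjusted p = 0.347). Foxp3 averaged 30.6 CPM in venetoclax Tcon and 29.1 CPM in vehicle Tcon (log2 0.07, limma adjusted p = 0.659). None of the 25 measured markers of other cells was called in Tcon by limma or edgeR, 6 had an unadjusted limma p under 0.05, and DESeq2 called 3 (Nkg7 higher, Eomes and Pecam1 lower). Of the 6 measured CD4 T cell markers, limma called 1 in Tcon, Cd5, which fell. It averaged 371 CPM in venetoclax Tcon and 483 CPM in vehicle Tcon (log2 -0.39, limma adjusted p = 0.00769). The part of the identity list and of these markers in the results for Tcon was not tested.

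Whether the venetoclax effect differed between the subsets was tested as an interaction over the 16 libraries and the 10774 genes in both tables. None of the 7 genes passed with limma, with edgeR or with DESeq2, and 1 (Capg) had an unadjusted p under 0.05, while 1.3% of all genes passed with limma (140), 0.334% with a higher and 0.965% with a lower effect in Tregs. Capg changed less in Tregs (log2 0.28) than in Tcon (log2 0.65), a difference of -0.36 (SE 0.10, 95% interval -0.58 to -0.14, limma adjusted p = 0.116). Treg and Tcon libraries carry shared mouse codes in the labels. With the code as a block, Capg passed (adjusted p = 0.0411) and 389 genes did in all. For Nt5e the effects were close, at log2 0.62 in Tregs and 0.57 in Tcon, with a difference of 0.05 (95% interval -0.23 to 0.34). The interval for Izumo1r was the narrowest, -0.19 to 0.18 around -0.00. Those for Entpd1 (-0.68 to 0.26), Nrp1 (-0.64 to 0.64), Ebi3 (-0.83 to 0.91) and Il10 (-1.79 to 1.51) allow sizeable differences either way.

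**Figure D3:**
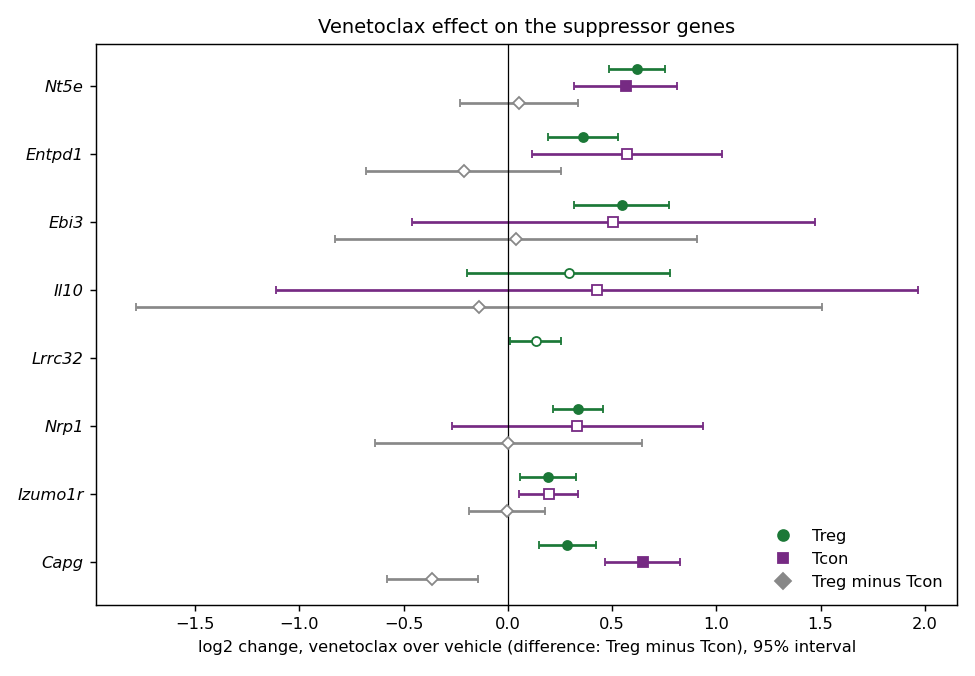
Log2 change of venetoclax over vehicle per gene in Tregs (green circles) and in Tcon (purple squares), and the difference of the effects, Treg minus Tcon (grey diamonds), with 95% intervals from limma; filled markers passed the adjusted threshold of 0.05. The difference for Capg lies below 0, and those for the other 6 genes span 0.

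The levels set the subsets side by side without a test, because each table was normalized separately and these genes were picked as Treg molecules. In all 7 genes every Treg library lay above every Tcon library under vehicle, as did 24.5% of all 10774 shared genes. The 7 genes also did so under venetoclax, where the share over all genes was not counted. Under venetoclax Ebi3 had the highest ratio, at 12.9 ± 1.32 CPM in Tregs and 0.369 ± 0.083 CPM in Tcon (SD, n = 4 each; 34.9-fold). Nrp1 followed at 496 ± 21.6 CPM in Tregs and 26.7 ± 11.6 CPM in Tcon (18.6-fold), and then Il10 (15.8-fold), Entpd1 (13.7-fold), Capg (6.70-fold), Izumo1r (6.50-fold) and Nt5e (6.49-fold).

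Under vehicle the ratio of Treg to Tcon means was 31.5 for Ebi3, 19.5 for Nrp1, 16.4 for Entpd1, 15.6 for Il10, 8.60 for Capg, 6.49 for Izumo1r and 6.20 for Nt5e. The ratio for Capg was lower under venetoclax than under vehicle: its mean was 378 ± 26.4 CPM in venetoclax Tregs and 56.5 ± 4.50 CPM in venetoclax Tcon, against 307 ± 25.8 CPM in vehicle Tregs and 35.7 ± 1.31 CPM in vehicle Tcon (SD, n = 4 each). Vehicle Tregs held 283 ± 28.7 CPM of Nt5e, far above the 67.4 ± 6.49 CPM of venetoclax Tcon (SD, n = 4 each).

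**Figure D4:**
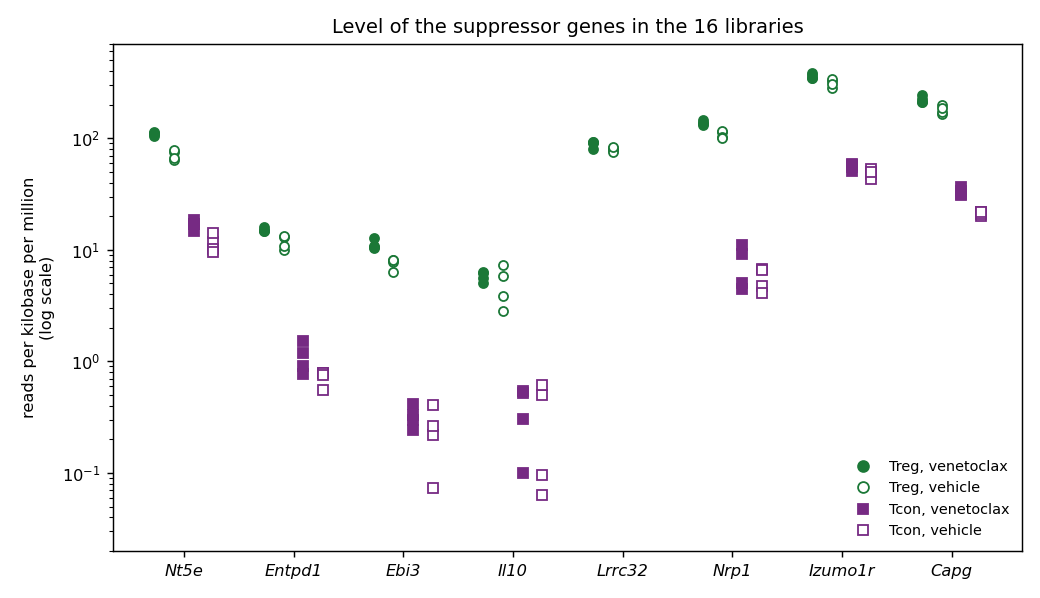
Level per kilobase of exon (CPM divided by exon length in kilobases), on a log scale, for each gene in each of the 16 libraries: Tregs in green circles, Tcon in purple squares, venetoclax filled and vehicle open. Every Treg library lies above every Tcon library in the 7 genes measured in both, and Izumo1r and Capg are the highest of the genes in both subsets. Among all 10774 shared genes 24.5% had every Treg library above every Tcon library under vehicle.

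Per kilobase of exon, the levels of the genes could be ordered against each other. In venetoclax Tregs Izumo1r stood highest at 362 (reads per kilobase of exon, scaled as CPM), then Capg (223), Nrp1 (138), Nt5e (110), Lrrc32 (88.8), Entpd1 (15.1), Ebi3 (11.2) and Il10 (5.81). No neighbours in that order overlapped between libraries, and Nt5e stood above Lrrc32 in every library. In vehicle Tregs the levels were 314 for Izumo1r, 181 for Capg, 108 for Nrp1, 80.1 for Lrrc32, 70.8 for Nt5e, 11.7 for Entpd1, 7.56 for Ebi3 and 4.99 for Il10. There Lrrc32 and Nt5e overlapped between libraries, as did Ebi3 and Il10. The order in Tcon was Izumo1r, Capg, Nt5e, Nrp1, Entpd1, Il10 and Ebi3 under both treatments, with levels of 55.7 and 0.320 for the first and last under venetoclax and 48.3 and 0.240 under vehicle. Neighbours overlapped for Il10 and Ebi3 under both treatments and for Entpd1 and Il10 under vehicle.

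The partners of these genes were read from 8 lists of related genes, which are drawn in the plot of list members. The list counts below stand beside the shares over all genes. The lists were chosen with earlier results of these data known, so the counts are a description and not a test. In Tregs 10.7% of all genes rose and 8.81% fell, and in Tcon 3.92% rose and 2.99% fell. In the adenosine and ATP list, 6 of 17 measured genes rose in Tregs and 1 fell (median log2 0.12). Adora2a, the adenosine receptor, averaged 1598 ± 60.6 normalized counts in venetoclax Tregs and 1347 ± 47.3 in vehicle Tregs (SD, n = 4 each; log2 0.25, limma adjusted p = 0.00543). Cd38, a surface enzyme that consumes NAD, rose (log2 0.63, limma adjusted p = 0.000296), and so did the ATP-releasing channel Panx1 (log2 0.23, limma adjusted p = 0.00694). Ada, the deaminase that removes adenosine, fell: it averaged 175 ± 13.0 in venetoclax Tregs and 246 ± 22.3 in vehicle Tregs (SD, n = 4 each; log2 -0.48, limma adjusted p = 0.00552). In Tcon 3 of 17 rose and 1 fell, Panx1 among the higher ones (log2 0.50, limma adjusted p = 0.00292), and Adora2a had a log2 change of -0.12 (limma adjusted p = 0.501). The call of Panx1 was lost without venetoclax replicates 1 and 3 in Tregs (adjusted p = 0.0882) and in Tcon (0.0697).

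In the list for IL-10, IL-27 and IL-35 signalling, 5 of 18 measured genes rose in Tregs and 1 fell (median log2 0.14). Maf, a transcription factor that drives Il10 in T cells, averaged 5418 ± 175 normalized counts in venetoclax Tregs and 2912 ± 493 in vehicle Tregs (SD, n = 4 each; log2 0.91, limma adjusted p = 0.000119), while Il10 itself did not pass. Il10ra, the ligand-binding chain of the IL-10 receptor (log2 0.58, limma adjusted p = 0.00096), Prdm1, which encodes BLIMP-1 (log2 0.58, limma adjusted p = 0.00431), and Il12rb1 (log2 0.47, limma adjusted p = 0.00199) rose as well. Il27ra, the receptor chain for IL-27, had a log2 change of 0.06 (limma adjusted p = 0.407). In Tcon 2 of 19 rose and 1 fell. Il10ra averaged 1311 ± 113 in venetoclax Tcon and 710 ± 117 in vehicle Tcon (SD, n = 4 each; log2 0.89, limma adjusted p = 0.00217).

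Of 16 measured genes for TGF-β activation and signalling, 4 rose in Tregs and 1 fell (median log2 0.03). Both chains of the integrin that releases TGF-β from LRRC32 rose: Itgb8 averaged 836 ± 62.9 normalized counts in venetoclax Tregs and 506 ± 50.5 in vehicle Tregs (SD, n = 4 each; log2 0.72, limma adjusted p = 0.00016), and Itgav had a log2 change of 0.42 (limma adjusted p = 0.00156). Tgfb1, the cytokine itself, had a log2 change of 0.04 (limma adjusted p = 0.667). The receptor Tgfbr1 rose (log2 0.31, limma adjusted p = 0.00499), a call lost without venetoclax replicates 1 and 3 (adjusted p = 0.0966), and Smad7, an inhibitor of the pathway, fell (log2 -0.41, limma adjusted p = 0.00266). In Tcon none of 15 was called by limma or edgeR, 3 were by DESeq2, and 5 had an unadjusted limma p under 0.05. Limma with the replicate number as a block called 3. Smad7 had a log2 change of -0.43 in Tcon (limma adjusted p = 0.142, and 0.00698 with the block). Itgav had one of 0.29 there (limma adjusted p = 0.0582, and 0.0185 with the block). None of the 15 was called by limma for the difference between the subsets. Itgb8 averaged 17.6 ± 13.6 in venetoclax Tcon and 17.0 ± 12.5 in vehicle Tcon (SD, n = 4 each).

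Of 11 measured neuropilin, semaphorin and plexin genes, 2 rose and 2 fell in Tregs (median log2 0.11). Plxnd1, a semaphorin receptor, rose (log2 0.48, limma adjusted p = 0.0017). Sema4a, a semaphorin that binds NRP1 on mouse Tregs, averaged 661 ± 73.4 normalized counts in venetoclax Tregs and 887 ± 106 in vehicle Tregs (SD, n = 4 each; log2 -0.42, limma adjusted p = 0.0085). In Tcon Sema4a was higher after venetoclax, the only called gene of 12 by limma, at 5719 ± 498 in venetoclax Tcon and 3942 ± 427 in vehicle Tcon (SD, n = 4 each; log2 0.54, limma adjusted p = 0.00736). The difference of the effects for Sema4a, Treg minus Tcon, was -0.96 (SE 0.14, limma adjusted p = 0.00288), and it passed without each mouse code in turn (adjusted p 0.00407 to 0.0239) but not without venetoclax replicates 1 and 3 (0.112). The call of Sema4a in Tcon was lost in that setting (adjusted p = 0.074) and with Y-linked reads as a covariate (0.0504). The other calls in Tregs were Sema4d (higher) and Gipc1 (lower). Sema4d lost its call without vehicle replicate 3 (adjusted p = 0.0563) and without venetoclax replicate 1 (0.0603), and Gipc1 without vehicle replicates 1 (0.0525) and 3 (0.0568) and without venetoclax replicate 1 (0.0509).

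Few genes were called in the folate and gelsolin lists. None of 6 folate receptors, carriers and enzymes was called by limma or edgeR in either subset. DESeq2 called none in Tregs and 2 in Tcon, and the unadjusted limma p was under 0.05 for 2 in Tregs and 3 in Tcon. Of 14 gelsolin family and actin-capping genes 1 rose in Tregs: Scin, which encodes the actin-severing scinderin of the same family as CAPG, averaged 153 ± 20.0 in venetoclax Tregs and 78.9 ± 10.5 in vehicle Tregs (SD, n = 4 each; log2 0.95, limma adjusted p = 0.000788). In Tcon 1 of 13 was called, Vil1, which encodes the actin-bundling villin of the same family: it averaged 4.42 ± 1.54 in venetoclax Tcon and 13.1 ± 4.28 in vehicle Tcon (SD, n = 4 each; log2 -1.37, limma adjusted p = 0.0463). The call of Vil1 was lost without any 1 of the 8 libraries (adjusted p 0.0582 to 0.133) and with Y-linked reads as a covariate (0.0514), and DESeq2 called none of the 13.

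Of 28 genes measured in Tregs from the list of other suppressor molecules, 15 rose and 1 fell (median log2 0.35), beside 10.7% and 8.81% of all genes. The list was chosen with earlier results known, and it also holds genes that are not suppressor molecules themselves, such as a costimulator. Pdcd1, which encodes PD-1, averaged 2472 ± 230.3 normalized counts in venetoclax Tregs and 1304 ± 98.1 in vehicle Tregs (SD, n = 4 each; log2 0.92, limma adjusted p = 2.85e-05). Fgl2, a secreted suppressor (log2 1.06, limma adjusted p = 0.00023), Itgae, the integrin chain CD103 (log2 0.73, limma adjusted p = 0.000337), and the costimulator Icos (log2 0.50, limma adjusted p = 0.00036) rose too. Ctla4 (log2 0.15, limma adjusted p = 0.223) and Il2ra (log2 0.02, limma adjusted p = 0.81) did not pass, and the sign for Il2ra turned with upper quartile scaling and without vehicle replicate 2. In Tcon 5 of 27 rose, beside 3.92% of all genes. Gpr83 averaged 367 ± 36.7 in venetoclax Tcon and 182 ± 19.0 in vehicle Tcon (SD, n = 4 each; log2 1.01, limma adjusted p = 0.000865), and Il2ra, the IL-2 receptor α chain, rose as well (log2 0.98, limma adjusted p = 0.00589). Both effects were smaller in Tregs, with a Treg minus Tcon difference of -0.68 for Gpr83 (SE 0.11, limma adjusted p = 0.00487) and of -0.96 for Il2ra (SE 0.17, limma adjusted p = 0.00857). The one for Il2ra was lost without the code of venetoclax replicate 2 (adjusted p = 0.0644), and the one for Gpr83 without venetoclax replicates 1 and 3 (0.18).

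Of 20 genes that separate resting from effector Tregs, 11 rose and 5 fell in Tregs (median log2 0.25). Over all genes 10.7% rose and 8.81% fell. Satb1, a chromatin organiser high in resting T cells, fell (log2 -0.68, limma adjusted p = 7.15e-05). The chemokine receptor Ccr6 (log2 0.70, limma adjusted p = 0.000209) and Irf4, a transcription factor of effector Tregs (log2 0.61, limma adjusted p = 0.000313), rose. In Tcon 1 rose, Ccr8 (log2 1.01, limma adjusted p = 0.00794; 0.158 without venetoclax replicates 1 and 3), and 3 fell. Over the 8 lists, 42 of 54 called genes in Tregs and 6 of 18 in Tcon kept their call without each library in turn. Those in Tcon were Panx1, Il10ra, Sema4a, Gpr83, Il2ra and Ccr8.

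**Figure D5:**
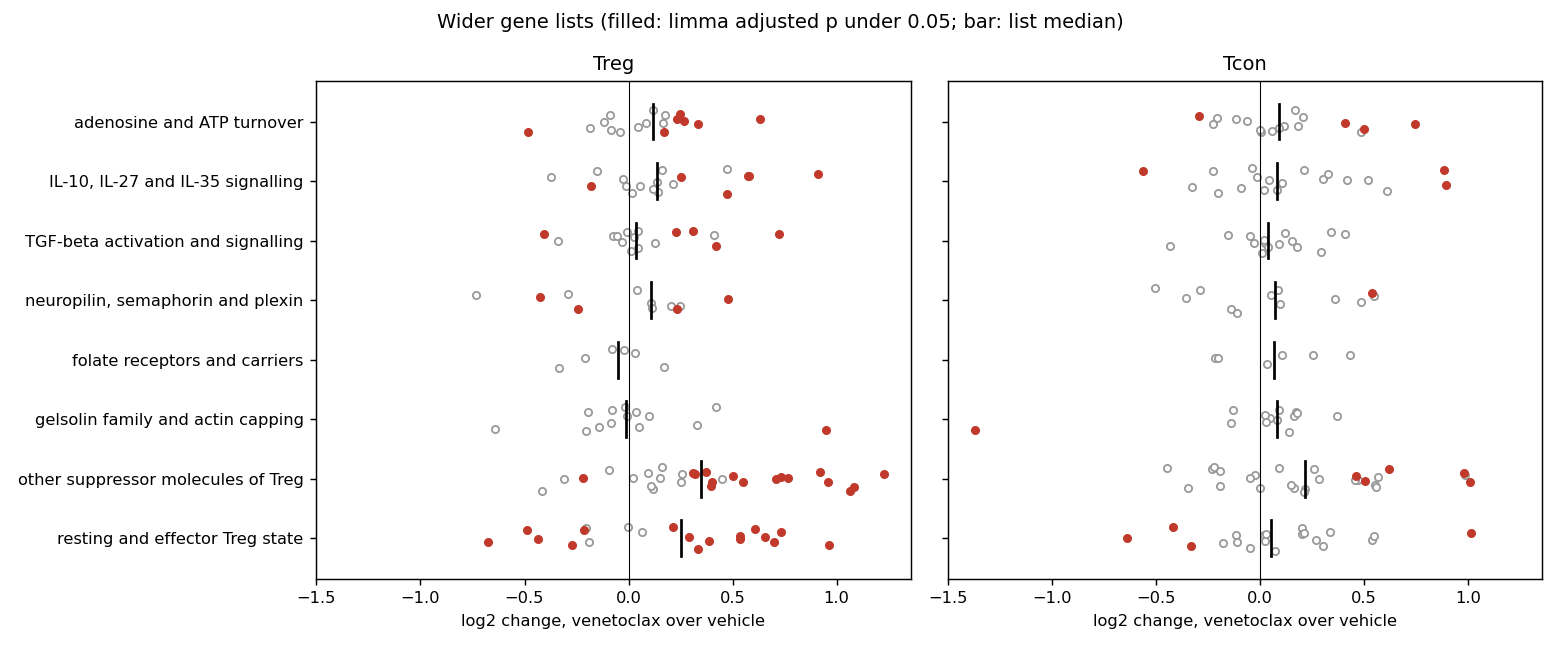
Log2 change of venetoclax over vehicle for each measured gene of the 8 lists, in Tregs (left) and Tcon (right); red filled points passed a limma adjusted p of 0.05, grey open points did not, and the black bar is the list median. The suppressor molecule list has 15 higher and 1 lower of 28 in Tregs, and the folate list has no called gene in either subset. Over all genes 10.7% were higher and 8.81% lower in Tregs.

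Genes with the most similar profile over the 16 libraries were found by the root mean square difference of centred log2(CPM + 1) values, among 9300 genes. This measure is dominated by the gap between Tregs and Tcon and is a description. Endod1 was closest to Nt5e (0.19), Tiam1 to Entpd1 (0.18), Vav2 to Ebi3 (0.16), Pear1 to Il10 (0.29), Myo1e to Nrp1 (0.23), Tns1 to Izumo1r (0.15) and Ncmap to Capg (0.16). Pdcd1lg2, which encodes the PD-1 ligand PD-L2, was the second closest to both Nt5e (0.20) and Izumo1r (0.15).

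The authors' deposited table of the treatment comparison gave the same 6 genes an adjusted p under 0.05 in Tregs, where 20.5% of all genes had one, from 1.05e-17 for Nt5e to 0.0145 for Izumo1r, with 0.104 for Lrrc32 and 0.594 for Il10. In Tcon the authors' deposited table had 3 of the 7, and 11.3% of all genes, under 0.05: Capg (7.6e-10), Nt5e (0.000349) and Izumo1r (0.0453), with Entpd1 at 0.0751.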

How the data were processed

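Each table holds, per gene and library, the normalized signal that the authors deposited: counts scaled by a size factor for each library. Further deposited columns give a log2 fold change (venetoclax over vehicle) with its standard error, and an unadjusted and an adjusted p-value. The submitters' processing notes name HISAT2, SAMtools and the build mm10. No source used here names the counter, its strand setting or gene filters. Whether reads of overlapping genes on opposite strands were counted apart is therefore not known. The 2 tables were normalized separately.

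Whole reads were recovered from the steps of each column (100% of values within 0.01). Exact repeat lines (43 in Treg, 40 in Tcon) were dropped, and 18 symbols turned into dates in the Treg table were restored by Entrez identifier. CPM uses the recovered reads, and levels per kilobase use exon lengths from GENCODE vM21. Coordinates are 1-based.

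Limma 3.58.1 in R 4.3.3 (empirical Bayes with a mean trend) was fitted to log2(normalized count + 1) of all genes of a table, 4 venetoclax against 4 vehicle libraries, and for the difference over 16 libraries. The alternatives were pseudocounts of 0.5 and 5, a mean of at least 50 normalized counts, TMM and upper quartile scaling, Y-linked reads as a covariate, libraries left out, the replicate number as a block, and edgeR 4.0.16 and DESeq2 1.42.0 on the recovered reads. Only the limma comparison within a table was tried on simulated counts, modelled on the Treg libraries and scaled by TMM. The changes simulated there were larger than those of the 8 genes. The fits for the difference, with blocks, with edgeR and with DESeq2 were not tried in this way. The genes, lists, tests and alternatives were chosen with earlier results of these data known. The text names the 8 genes, up to 4 genes per list and subset by smallest p, and direct partners. Il12a, a partner of Ebi3, was not analysed here.

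The deviations of Treg and Tcon libraries with 1 mouse code correlated at 0.20 to 0.55, and every library matched its own code best (8 of 8), so the fit for the difference was also run with the code as a block, and that value is given where it changes a call or a count.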

Additional observations from a re-analysis of the deposited data

Results flagged for a closer look

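Entpd1 in vehicle Tcon had 1 library apart from the rest: replicate 3 stood at 60.2 normalized counts, and its gap to the next library was 0.837 of the range of the group, above Dixon's limit for 4 samples. It was the only one of 30 groups tested to pass that limit, which chance passes in about 1 of 20 groups.

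In the related lists 5 genes had effects that differed between the subsets by the test of the difference (limma, adjusted over 10774 genes). Sema4a fell in Tregs (log2 -0.42) and rose in Tcon (log2 0.54), a Treg minus Tcon difference of -0.96 (adjusted p = 0.00288). Gpr83 rose in both, by log2 0.32 in Tregs and 1.01 in Tcon (difference -0.68, adjusted p = 0.00487). Il2ra had a log2 change of 0.02 in Tregs and 0.98 in Tcon (difference -0.96, adjusted p = 0.00857). Tnfrsf9, named for its difference after its values were seen, had a log2 change of 0.40 in Tregs and -0.35 in Tcon (difference 0.75, adjusted p = 0.0214). Ada had a log2 change of -0.48 in Tregs and 0.12 in Tcon (difference -0.60, adjusted p = 0.0484). The tests for Sema4a and Gpr83 were passed without each mouse code in turn, and were lost without venetoclax replicates 1 and 3 (adjusted p = 0.112 for Sema4a and 0.18 for Gpr83). The one for Il2ra was lost without the code of venetoclax replicate 2 (adjusted p = 0.0644), the one for Tnfrsf9 without the codes of vehicle replicates 1 (0.0917) and 2 (0.0617) and of venetoclax replicates 1 (0.104) and 2 (0.059), and the one for Ada without any 1 of the 8 codes (0.0738 to 0.161). With the mouse code as a block 13 list genes were called for the difference: these 5 and, named after their values were seen, Adora2a, Ccr8, Gsn, Icos, Lgals9, Penk, Plxnd1 and Prdm1.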

How the results depend on the processing

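For the 8 genes in Tregs, 135 of 152 values under an alternative kept their direction and their side of the threshold, 16 lost the call and 1 gained it. The number of these genes called in Tregs was 3 without venetoclax replicates 1 and 3, and the number of all genes called was then 614, against 1028 without replicate 3 of both groups and 1327 to 2198 without single libraries. With Y-linked reads as a covariate, 5 of these genes and 1557 of all genes were called in Tregs, against 6 and 2164 without it. In Tcon the number of the 7 genes called was 1 with Y-linked reads as a covariate, 1 without venetoclax replicates 1 and 3, and 1 to 2 without single libraries. That number was 3 without replicate 3 of both groups and 3 with DESeq2. All genes called in Tcon were 326 with the covariate, 116 without venetoclax replicates 1 and 3, 1443 without replicate 3 of both groups, 1371 with DESeq2 and 306 to 1244 without single libraries. For the difference, 4 genes were called without venetoclax replicates 1 and 3, 295 with DESeq2 and 43 to 149 without single codes. The 2 settings that leave out a pair of libraries also have fewer samples.

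The replicate number of venetoclax and vehicle libraries is shared in the labels, but their deviations correlated at -0.015 to 0.28 in Tregs and 0.073 to 0.43 in Tcon, with 3 of 4 numbers matching best in each. Over genes with a mean of at least 50 the correlations were -0.039 to 0.41 in Tregs and 0.12 to 0.61 in Tcon. Number 1 lay under 0.1 in both subsets over all genes, so the number was not taken as pairing. With the replicate number as a block, 4 of the 7 genes were called in Tcon, Entpd1 (adjusted p = 0.0318) and Izumo1r (0.0321) beside Capg and Nt5e, and 1880 genes in all. With the mouse code as a block, 1 gene (Capg) and 389 in all were called for the difference.

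Differences between subsets that lie near 0 turned sign. Nt5e gave -0.035 without venetoclax replicates 1 and 3 and -0.023 without replicate 3 of both groups. Ebi3 gave -0.010 with a pseudocount of 0.5 and -0.025 without venetoclax replicates 1 and 3 (-0.20 to 0.33 without single codes). Il10 gave 0.036 with a pseudocount of 5, 0.20 without venetoclax replicates 1 and 3, 0.16 without replicate 3 of both groups, 0.014 with edgeR and 0.0043 with DESeq2 (-0.65 to 0.24 without single codes). Nrp1 gave -0.012 with upper quartile scaling, -0.14 without venetoclax replicates 1 and 3, -0.11 without replicate 3 of both groups, -0.058 with edgeR and -0.061 with DESeq2 (-0.20 to 0.23). Izumo1r gave 0.016 with TMM scaling, 0.033 without venetoclax replicates 1 and 3, 0.014 with edgeR and 0.011 with DESeq2 (-0.040 to 0.035). In Tcon, Il10 gave -0.13 without replicate 3 of both groups and -0.043 to 0.89 without single libraries, and Itgb8 -0.40 to 0.41. In Tregs, Tgfb1 gave -0.0036 to 0.080 and Il2ra -0.0035 to 0.055 without single libraries, Il2ra -0.0068 with upper quartile scaling, and Ggh 0.019 with the Y-linked covariate. Where no reason is given, the cause was not tested.

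Ebi3 and Il10 had few reads in Tcon, and the part of depth and of the spread between libraries in their wide intervals was not tested. The 4 libraries per group limit the precision of every interval.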
